A study of Mus musculus with 6 samples.

Results

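The 10 genes described are components of receptor activator of NF-kB (RANK) signalling together with the transcription factor Fezf2. They were taken by symbol from a table of unique molecular identifier (UMI) counts that held 15643 genes. All 10 were in the table and all 10 passed the filter on low counts: the receptor Tnfrsf11a, the adaptors Traf2, Traf3 and Traf6, the kinase Map3k14, the subunits Relb, Nfkb2, Rela and Nfkb1, and Fezf2. They were measured in mature medullary thymic epithelial cells (mTEChi) sorted from thymi of NOD mice, a strain prone to autoimmune diabetes, aged 4.5 weeks. There were 3 libraries of genotype Aire +/+ (numbers 745, 750 and 753) and 3 of genotype Aire -/- (746, 748 and 749), and no treatment is named. The labels name neither the deleted part of the Aire allele nor whether a number stands for 1 animal or a pool, so p-values measure only the spread between these libraries.

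RANK, the product of Tnfrsf11a, is a TNF receptor family member on medullary thymic epithelium, and its ligand comes from haematopoietic cells of the thymus. Its classical branch runs through TRAF6 and the IKK complex to RelA with the Nfkb1 product, held in the cytoplasm by IkB proteins until IKK acts. In its alternative branch TRAF2 and TRAF3 keep the kinase NIK (Map3k14) low until the receptor is engaged, after which NIK leads to processing of the Nfkb2 precursor and entry of its product with RelB into the nucleus. Mice without RelB or RANK signalling are known to have few mature medullary epithelial cells, and RANK signalling is known to induce Aire. Fezf2 is a zinc finger factor that, like Aire, is needed for many proteins of peripheral tissues in these cells.

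Library totals were 2736932 to 2887321 UMIs for Aire +/+ and 1014581 to 1960802 for Aire -/-. Levels are given as CPM, a gene's UMIs relative to the total of its library, scaled by edgeR's TMM factors. The 3' end of Aire gave 2063 to 2447 CPM under the Aire +/+ label and 4464 to 5118 CPM under the Aire -/- label, which checks no genotype if the deleted part lies elsewhere in the gene, so directions rest on the labels. Gapdh, a glycolytic enzyme of every cell, had 90 UMIs in library 753 and 28 in 746 against 2245 to 4166 in the other 4, and results are also given without both. Of 11956 genes tested, 8.59% were called higher and 12.1% lower in the libraries labelled Aire -/- at an edgeR adjusted p of 0.05, and 36.5% had groups of libraries that did not overlap.

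Relb, Traf2 and Map3k14 were higher in the libraries labelled Aire -/-, whereas RANK, Traf3, Traf6, Nfkb2, Rela, Nfkb1 and Fezf2 were not called. Relb differed most, at 489 ± 63.3 CPM against 273 ± 24.4 (SD, n = 3 each). Thus 3 of 10 genes were called, against 20.7% of all tested genes, with 3 higher, against 8.59%, and 0 lower, against 12.1% (edgeR quasi-likelihood test; 4 higher and 0 lower at an unadjusted p of 0.05, and 3 and 0 by both DESeq2 and limma-voom). The groups did not overlap for 4 of the 10, near the 36.5% of all tested genes. The median log2 fold change, Aire -/- over Aire +/+, was 0.25 over the 10 genes and -0.02 over all tested genes. When libraries were scaled by their totals alone, the median of all genes moved to -0.22, that of the 10 genes to 0.05, and 1 of 10 was called higher (Relb) and 0 lower, where 4.74% and 17.1% of all genes were. Without library 753 the count of higher genes was also 1.

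**Figure D1:**
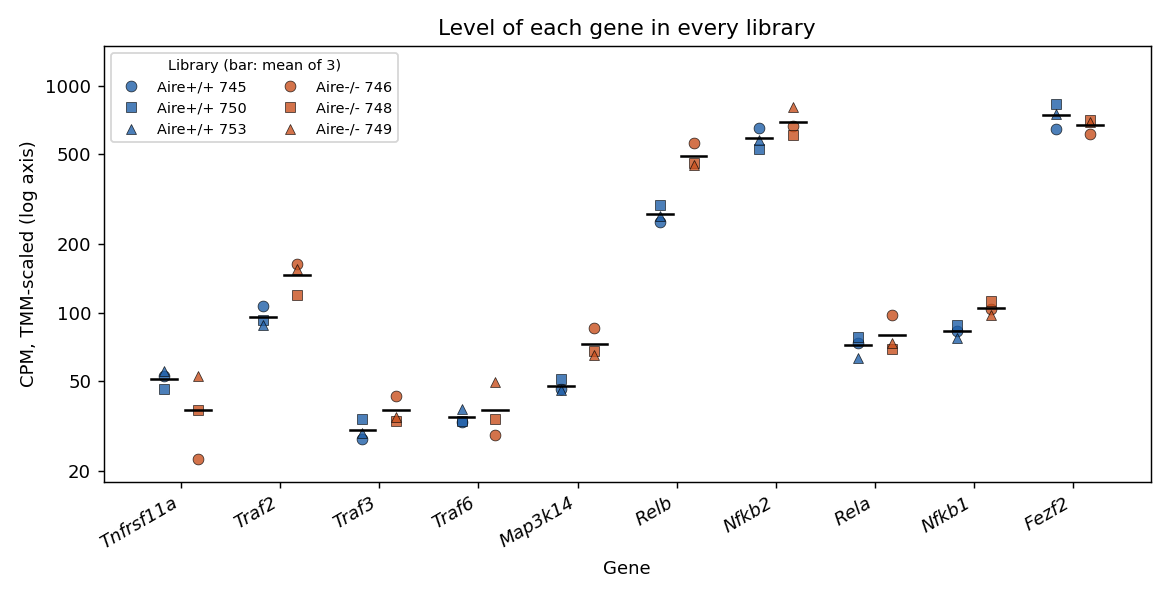
Level of each of the 10 genes in every library, as TMM-scaled CPM on a log axis; symbols are libraries, blue for Aire +/+ and orange for Aire -/-, and bars are means of 3. The Relb, Traf2 and Map3k14 symbols of the Aire -/- libraries lie above all Aire +/+ symbols of the same gene, those of Nfkb1 do too without a call, and those of Fezf2 and Rela overlap.

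By level the 10 genes fell into an abundant trio and 7 genes of moderate level. A UMI marks 1 captured 3' end, so CPM needs no division by transcript length, although capture may differ between transcripts. In the Aire +/+ libraries Fezf2 stood first with 743 ± 92.1 CPM, higher than 98.95% of the genes of the table, followed by Nfkb2 with 587 ± 61.7 and Relb with 273 ± 24.4 CPM. Fezf2 and Nfkb2 overlapped between libraries and Relb lay below both. Traf2 (96.0 ± 9.64 CPM), Nfkb1 (82.9 ± 5.33) and Rela (71.7 ± 7.48) came next, with Nfkb1 and Rela overlapping. Tnfrsf11a (51.3 ± 4.76) and Map3k14 (47.7 ± 3.05) overlapped, as did Traf6 (34.7 ± 2.52) and Traf3 (30.5 ± 3.18), the lowest of the 10. In the Aire -/- libraries Nfkb2 (694 ± 102) and Fezf2 (672 ± 50.5) overlapped at the top, and Map3k14 (72.6 ± 11.03) stood above Tnfrsf11a (37.4 ± 15.0) without overlap. Together the 10 genes held 0.205% to 0.222% of the UMIs of the Aire +/+ libraries and 0.213% to 0.229% of those of the Aire -/- libraries, ranges that overlap.

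The receptor gene Tnfrsf11a (chromosome 1, positions 105780718 to 105847981, plus strand, mm10) was at 52.8, 45.9 and 55.1 CPM in Aire +/+ libraries 745, 750 and 753. In Aire -/- libraries 746, 748 and 749 it was at 22.6, 37.1 and 52.6 CPM, from 22, 69 and 86 UMIs. Library 746 was lowest and 749 lay within the Aire +/+ range, so the groups overlapped. The log2 fold change of -0.41 (95% interval -0.90 to 0.09) did not pass the test (edgeR adjusted p = 0.248). Without library 749 it was -0.71 with an edgeR adjusted p of 0.025, so that 1 library decides the call. Scaled by library totals, all 3 Aire -/- libraries were below all Aire +/+ libraries, and the edgeR adjusted p was 0.0653.

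Of the adaptors, Traf2 rose and the other two were not called. Traf2 (chromosome 2, positions 25517982 to 25546940, minus strand), which joins the cIAP ubiquitin ligases to the receptor complex, was at 107, 92.5 and 88.6 CPM in libraries 745, 750 and 753 and at 163, 119 and 156 CPM in 746, 748 and 749. Every Aire -/- library was above every Aire +/+ library, with 748 the closest. The log2 fold change was 0.60 ± 0.15 SE (edgeR adjusted p = 0.0142). It was lost without library 750 (edgeR adjusted p = 0.0614), without 753 (0.0804), without both 753 and 746 (0.132) and under scaling by library totals (0.0995), where library 745 overlapped the Aire -/- group.

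Traf3 (chromosome 12, positions 111166370 to 111267153, plus strand), which bridges NIK to TRAF2 and the cIAPs, was at 27.9, 34.0 and 29.5 CPM against 43.1, 33.4 and 34.8 CPM in the same order of libraries. The groups overlapped by libraries 750 and 748, and the log2 fold change was 0.26 (95% interval -0.13 to 0.66, edgeR adjusted p = 0.364). Traf6 (chromosome 2, positions 101678429 to 101701669, plus strand), the ubiquitin ligase of the classical branch, was at 33.1, 33.4 and 37.6 CPM against 28.7, 33.9 and 49.5 CPM. The Aire -/- libraries lay on both sides of the Aire +/+ libraries, with 746 lowest and 749 highest of all 6. Its log2 fold change of 0.13 had a 95% interval of -0.31 to 0.57 (edgeR adjusted p = 0.710), and the sign turned under scaling by library totals (-0.07).

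Map3k14 (chromosome 11, positions 103219762 to 103267472, minus strand), which encodes NIK, rose. It was at 46.2, 51.2 and 45.7 CPM in libraries 745, 750 and 753 and at 85.2, 67.8 and 64.8 CPM in 746, 748 and 749. The groups did not overlap under either scaling, and 746 was the highest library. The log2 fold change was 0.59 ± 0.16 SE (edgeR adjusted p = 0.0170). The call was lost without library 745 (edgeR adjusted p = 0.0736), without 753 (0.0812), without both 753 and 746 (0.147) and under scaling by library totals (0.118).

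Among the subunits, Relb rose and the other three did not pass the test. Relb (chromosome 7, positions 19606217 to 19629438, minus strand), the partner of the Nfkb2 product, was counted at 769, 907 and 792 UMIs in libraries 745, 750 and 753 and at 547, 847 and 734 in 746, 748 and 749. On the CPM scale this was 252, 300 and 266 CPM against 562, 456 and 449 CPM. All Aire -/- libraries lay above all Aire +/+ libraries, under scaling by totals too (274 to 319 against 402 to 539 CPM). The log2 fold change was 0.84 ± 0.14 SE (edgeR adjusted p = 0.000738), and it was called under all 14 alternatives tried, with log2 fold changes from 0.65 to 0.91.

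Nfkb2 (chromosome 19, positions 46304320 to 46312385, plus strand), the precursor of the alternative branch, was at 652, 529 and 579 CPM against 665, 610 and 807 CPM. The groups overlapped through libraries 745 and 748, and the log2 fold change was 0.24 (95% interval -0.07 to 0.56, edgeR adjusted p = 0.282). The last 299 nt of its annotated 3' end are also exon of Psd on the opposite strand. The strand setting of the counting is not given in the sources used here, so whether reads of the pair were kept apart there is not known. No near-identical copy was found for the 3' ends of the other 9 genes.

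Rela (chromosome 19, positions 5637483 to 5648130, plus strand), the classical transactivating subunit, was at 73.8, 78.0 and 63.4 CPM against 97.5, 68.9 and 73.4 CPM. Only library 746 lay above the Aire +/+ range, and the log2 fold change of 0.14 (95% interval -0.22 to 0.49, edgeR adjusted p = 0.627) turned to -0.06 under scaling by library totals. Nfkb1 (chromosome 3, positions 135584655 to 135691547, minus strand), its usual partner, was at 83.0, 88.2 and 77.5 CPM against 104, 112 and 97.2 CPM. All Aire -/- libraries were higher on this scale, but overlapped on that of library totals. The log2 fold change of 0.33 (95% interval 0.04 to 0.63) had an unadjusted p of 0.0295 and an edgeR adjusted p of 0.108.

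**Figure D2:**
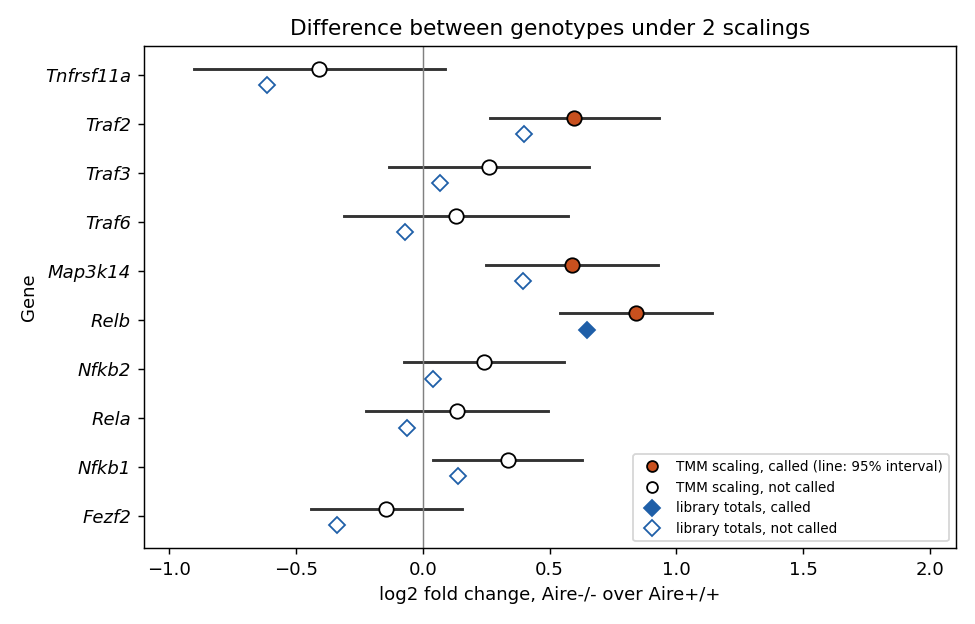
Log2 fold change of Aire -/- over Aire +/+ for the 10 genes; circles use TMM scaling with 95% intervals, diamonds use library totals, and filled symbols were called at an adjusted p of 0.05. Relb is filled under both scalings, Traf2 and Map3k14 under TMM only, and every diamond lies to the left of its circle.

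Ratios of UMIs between genes of a library do not depend on how libraries are scaled. The ratio of Relb to Rela was 3.42, 3.84 and 4.19 in libraries 745, 750 and 753 and 5.76, 6.62 and 6.12 in 746, 748 and 749. The groups did not overlap, with means of 3.82 ± 0.39 and 6.16 ± 0.43 (SD, n = 3 each; exact two-sided permutation p = 0.1, the smallest that 3 against 3 libraries allow, adjusted p = 0.2 over 4 ratios). The ratio of Map3k14 to Traf3, the kinase to an adaptor that keeps it low, was 1.66, 1.505 and 1.55 against 1.98, 2.03 and 1.86. These groups did not overlap either (exact permutation p = 0.1, adjusted 0.2). Nfkb2 to Nfkb1, the pair of precursors, was 7.11 ± 0.98 against 6.71 ± 1.46 and overlapped (exact permutation p = 0.8, n = 3 each). Traf3 to Traf2 was 0.32 ± 0.05 against 0.26 ± 0.03 and overlapped through library 745 (exact permutation p = 0.3, n = 3 each). No ratio could pass a threshold of 0.05 in this design.

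**Figure D3:**
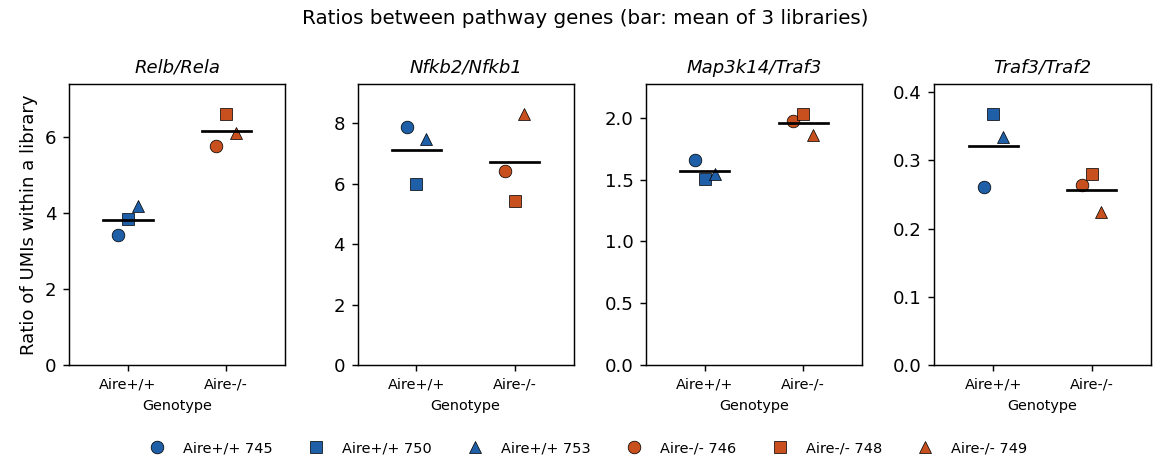
Ratio of the UMIs of 2 genes within each library, on axes that start at 0; symbols are libraries and bars are means of 3. Relb to Rela and Map3k14 to Traf3 lie higher in all 3 Aire -/- libraries, while Nfkb2 to Nfkb1 and Traf3 to Traf2 overlap.

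Promoter sequence is shown for the called genes Traf2 and Map3k14 and, chosen after its matches were seen, for Nfkb2, since the Nfkb2 promoter is a known target of NF-kB. RefSeq windows from 250 bases before to 50 after a start (GRCm38.p6, the build that mm10 names) were held for 8 of the 10 genes, in 10 windows. Each was searched on both strands for the kappaB motif, and matches may overlap. A match was found in 5 of these windows, those of Nfkb2 (3 windows), Traf3 and Fezf2, while 8.46% of all 32851 windows held one. Windows of Nfkb2 overlap, and 2 of them hold the same GGGACTTTCC site. For Relb and Nfkb1 no window was analysed here. The Traf2 window is chr2:25546891-25547190 (minus strand), that of Map3k14 chr11:103267352-103267651 (minus strand) and that of Nfkb2 chr19:46304487-46304786 (plus strand), each read 5′ to 3′ in the direction of the gene, with kappaB matches in capitals.
Traf2: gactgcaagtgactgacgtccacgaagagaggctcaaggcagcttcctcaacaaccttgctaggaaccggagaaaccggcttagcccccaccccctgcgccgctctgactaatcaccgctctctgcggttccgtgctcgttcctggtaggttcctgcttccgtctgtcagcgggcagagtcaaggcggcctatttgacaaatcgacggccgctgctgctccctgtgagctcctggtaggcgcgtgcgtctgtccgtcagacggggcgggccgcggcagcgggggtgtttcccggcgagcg
Map3k14: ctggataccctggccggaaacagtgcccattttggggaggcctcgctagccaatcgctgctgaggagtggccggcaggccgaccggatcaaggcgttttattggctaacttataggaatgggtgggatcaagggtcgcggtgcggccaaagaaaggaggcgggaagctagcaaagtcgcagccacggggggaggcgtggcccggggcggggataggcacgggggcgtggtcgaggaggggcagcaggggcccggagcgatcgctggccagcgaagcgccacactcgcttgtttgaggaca
Nfkb2: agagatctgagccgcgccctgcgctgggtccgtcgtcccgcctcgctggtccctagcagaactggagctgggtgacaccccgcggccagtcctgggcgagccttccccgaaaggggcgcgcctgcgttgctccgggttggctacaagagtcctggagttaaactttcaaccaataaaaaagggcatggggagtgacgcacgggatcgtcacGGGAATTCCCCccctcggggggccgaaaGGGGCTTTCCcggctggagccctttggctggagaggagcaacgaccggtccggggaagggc
The Traf2 and Map3k14 windows held no match, which says only that these letters are not there. The first capital run of Nfkb2 holds 2 overlapping matches and the second run 1. The match of the Traf3 window was GGGGATTTCC, 10 bases before the start, and that of the Fezf2 window was GGGACACCCC, at -173 from the start. The Fezf2 window, chr14:12345816-12346115, lies inside the annotated gene, whose 5′ end is at 12348189. For 6 of 7 windows checked, the bases after the start lay near the 5′ end of an annotated transcript. A match is a description of letters and does not show binding, and the levels of Nfkb2, Traf3 and Fezf2 did not pass the test between genotypes.

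Fezf2 (chromosome 14, positions 12342094 to 12348189, minus strand) did not pass the test of a difference between genotypes. It was counted at 1975, 2517 and 2230 UMIs in libraries 745, 750 and 753 and at 598, 1315 and 1135 in 746, 748 and 749, or on the CPM scale 648, 832 and 749 CPM against 614, 707 and 694 CPM. Libraries 748 and 749 lay within the Aire +/+ range and 746 just below it. The log2 fold change was -0.14 with a 95% interval of -0.44 to 0.16 (edgeR adjusted p = 0.523), so the interval does not include a fall to 0.5 of the Aire +/+ level (a log2 fold change of -1). Scaled by library totals it was at 722 to 886 CPM against 589 to 671 CPM, without overlap, and the log2 fold change was -0.34 (edgeR adjusted p = 0.0761). It was called under none of the 14 alternatives, with log2 fold changes from -0.34 to -0.06.

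The authors' deposited table, whose fold changes are Aire +/+ over Aire -/- and so have the opposite sign, gave adjusted p of 3e-06 for Relb, 0.0123 for Traf2 and 0.038 for Map3k14, so that 3 of the 10 genes passed 0.05 there, against 15.1% of its genes. For Fezf2 the authors' deposited table gave a log2 fold change of 0.13 with an adjusted p of 0.653, and for Tnfrsf11a 0.41 with 0.355.

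The rest of the pathway was described from 8 lists by role, 65 of whose 77 genes were tested. Of these, 11 were called higher and 7 lower, against 8.59% and 12.1% of all tested genes. The median log2 fold change was 0.20, against -0.02 over all tested genes. Under scaling by library totals the median was 0.00, against -0.22 over all tested genes. There, 7 were higher and 8 lower, against 4.74% and 17.1% of all tested genes. Of the 18 called genes, 10 were called under every alternative that gave a value and none changed direction. Without both 753 and 746 the counts were 7 higher and 4 lower, against 652 and 1177 of 12168 tested genes.

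Of the ligands, 2 of 4 tested fell, against 12.1% of all tested genes, and 0 rose, against 8.59% (edgeR). At an unadjusted p of 0.05 1 rose, and 0 by DESeq2 and limma-voom. Ltb, lymphotoxin beta, was at 199, 185 and 200 CPM in libraries 745, 750 and 753 and at 92.4, 103 and 126 CPM in 746, 748 and 749, without overlap (log2 fold change -0.86 ± 0.14 SE, edgeR adjusted p = 0.00082). Tnfsf13b, the B cell survival factor BAFF, fell from 28, 18 and 25 UMIs to 1, 5 and 4 (log2 fold change -1.80, edgeR adjusted p = 0.0105), and its call was lost without both 753 and 746 (0.0796). Tnfsf13b passed the filter on low counts through its Aire +/+ libraries alone, so only a fall could be called. Tnf (23.5 ± 3.71 against 34.3 ± 11.1 CPM) and Lta (27.3 ± 5.31 against 26.4 ± 9.24 CPM) were not called. Tnfsf11, the RANK ligand, and Cd40lg were not analysed here.

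Receptors were mostly not called: 1 of 5 tested fell, against 12.1% of all tested genes. This was Tnfrsf13c, the BAFF receptor, with 33, 37 and 25 UMIs against 0, 4 and 6 (log2 fold change -2.22, edgeR adjusted p = 0.00631). Tnfrsf13c, too, passed the filter on low counts through its Aire +/+ libraries alone, so only a fall could be called. Cd40, a receptor that acts beside RANK, was at 588 ± 52.2 and 571 ± 87.4 CPM (log2 fold change -0.04, 95% interval -0.35 to 0.27). Tnfrsf11b, the decoy receptor osteoprotegerin that binds the RANK ligand, was at 124 ± 15.8 and 139 ± 34.5 CPM (edgeR adjusted p = 0.534).

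Adaptors and kinases gave no calls, where 20.7% of all tested genes were called. Of 11 tested adaptors and ubiquitin ligases edgeR called 0 (3 higher and 1 lower at an unadjusted p of 0.05, 0 by DESeq2 and limma-voom). Under scaling by library totals 1 was lower, against 17.1% of all tested genes. Birc2 (175 ± 4.41 against 204 ± 44.9 CPM) and Birc3 (130 ± 8.19 against 167 ± 23.0 CPM), the cIAP ligases that mark NIK for degradation, had edgeR adjusted p of 0.347 and 0.0992. Of 6 tested kinases edgeR called 0 (1 higher at an unadjusted p of 0.05, 0 by DESeq2 and limma-voom). Ikbkb, the IKK beta kinase of the classical branch, was at 114 ± 9.92 and 126 ± 24.6 CPM, and Ikbke, an IKK-related kinase, at 55.7 ± 4.59 and 70.0 ± 3.71 CPM (edgeR adjusted p = 0.132).

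Of 13 tested inhibitors and related proteins 3 rose, against 8.59% of all tested genes, and 0 fell, against 12.1% (edgeR). At an unadjusted p of 0.05, and by DESeq2 and limma-voom, 0 fell. Nfkbia, which encodes IkB alpha and is itself a target of NF-kB, was at 2073, 2386 and 2037 CPM in libraries 745, 750 and 753 and at 4080, 3650 and 3955 CPM in 746, 748 and 749, without overlap (log2 fold change 0.85 ± 0.13 SE, edgeR adjusted p = 0.000525). Otulin, a deubiquitinase that removes linear ubiquitin chains, was at 206 ± 11.8 against 418 ± 41.8 CPM and so rose by 1.02 on the log2 scale (edgeR adjusted p = 9.87e-05). Tnip1, a partner of the inhibitor A20, rose by 0.38 on the log2 scale (edgeR adjusted p = 0.0453), a call lost in 8 of 14 alternatives, with an adjusted p of 0.313 under library totals, 0.0924 under upper-quartile factors, 0.115 without both 753 and 746, and 0.109, 0.0846, 0.0835, 0.138 and 0.148 without libraries 745, 748, 749, 750 and 753. Nfkbie (216 ± 19.0 against 194 ± 10.4 CPM) and Tnip2 (190 ± 7.35 against 218 ± 14.4 CPM) were not called.

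NF-kB target genes moved in both directions, 2 of 11 tested higher, against 8.59% of all tested genes, and 4 lower, against 12.1%. Bcl2l1, which encodes the survival protein Bcl-xL, was at 83.3, 98.1 and 74.2 CPM in libraries 745, 750 and 753 and at 192, 182 and 188 CPM in 746, 748 and 749 (log2 fold change 1.14, edgeR adjusted p = 8.39e-05). Cxcl2, a neutrophil chemokine, rose by 0.57 on the log2 scale (edgeR adjusted p = 0.011), a call lost without library 745 (0.072), without both 753 and 746 (0.0548) and under library totals (0.0747). The chemokine Ccl20 fell from 94.1, 61.8 and 120 CPM to 27.7, 24.2 and 13.4 CPM, a log2 change of -2.11 (edgeR adjusted p = 0.000159). Ccl5, a chemokine of T cells, fell from 1099 ± 196 to 573 ± 170 CPM (-0.94, edgeR adjusted p = 0.00533).

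The other two that fell were an adhesion ligand and a B cell chemokine. Madcam1, a ligand for lymphocyte homing, fell from 166 ± 26.2 to 104 ± 17.97 CPM (-0.67, edgeR adjusted p = 0.0114; lost without 748 at 0.0654, without 753 at 0.0728 and without both 753 and 746 at 0.0616). Cxcl13, named to complete the count, fell by 1.04 on the log2 scale (edgeR adjusted p = 0.0329; lost without 745 at 0.163, 746 at 0.0658, 749 at 0.0564 and 753 at 0.074, without both 753 and 746 at 0.152, and by limma-voom at 0.0794). Icam1 (492 ± 25.1 against 612 ± 76.0 CPM, edgeR adjusted p = 0.123) and Vcam1 (158 ± 1.46 against 168 ± 36.5 CPM), both adhesion molecules, were not called. The last 500 nt of Icam1 are also exon of the antisense gene Gm47079. Reads of that pair cannot be told apart there unless strand was used in counting.

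Among genes of medullary epithelial maturation 4 of 7 tested rose, against 8.59% of all tested genes, and 0 fell, against 12.1% (edgeR). At an unadjusted p of 0.05, and by DESeq2 and limma-voom, 0 fell. H2-Ab1 and H2-Aa, the chains of an MHC class II molecule, rose from 11921 ± 1056 to 23572 ± 1978 CPM and from 10772 ± 1301 to 18779 ± 2033 CPM (log2 fold changes 0.98 and 0.80, edgeR adjusted p = 0.000291 and 0.00175). The costimulatory ligand Cd80 was at 43.3, 54.2 and 47.7 CPM against 63.7, 63.5 and 106 CPM (0.70, edgeR adjusted p = 0.0278), a call lost without 745 (0.124), 749 (0.114) and 753 (0.0974), without both 753 and 746 (0.0558) and under library totals (0.0891). Cd86, named to complete the count, rose by 0.98 with overlapping libraries (edgeR adjusted p = 0.0452; lost without 748 at 0.0809, 749 at 0.145, 750 at 0.153 and 753 at 0.134, without both 753 and 746 at 0.0636, under library totals at 0.103 and under upper-quartile factors at 0.0608). Spib, a factor induced by RANK signalling, was at 303 ± 14.3 and 297 ± 11.2 CPM (log2 fold change -0.03, 95% interval -0.29 to 0.23). Cd40, given above with the receptors, was not called either.

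Other regulators of thymic epithelium were tested for 10 genes. Of these 2 rose, against 8.59% of all tested genes, and 0 fell, against 12.1% (edgeR). At an unadjusted p of 0.05, and by DESeq2 and limma-voom, 0 fell. Irf8, an interferon regulatory factor also abundant in dendritic cells, was at 198, 218 and 197 CPM in libraries 745, 750 and 753 and at 445, 400 and 435 CPM in 746, 748 and 749 (log2 fold change 1.06, edgeR adjusted p = 5.2e-05). Irf4 rose from 54.9 ± 7.90 to 96.0 ± 17.9 CPM (0.80, edgeR adjusted p = 0.0054; lost without both 753 and 746 at 0.0673). Foxn1, the master factor of thymic epithelium, was at 232 ± 20.9 and 298 ± 46.6 CPM (edgeR adjusted p = 0.102). Chd4, a chromatin remodeller reported to act with Fezf2, was at 249 ± 31.0 and 220 ± 17.8 CPM (edgeR adjusted p = 0.396).

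**Figure D4:**
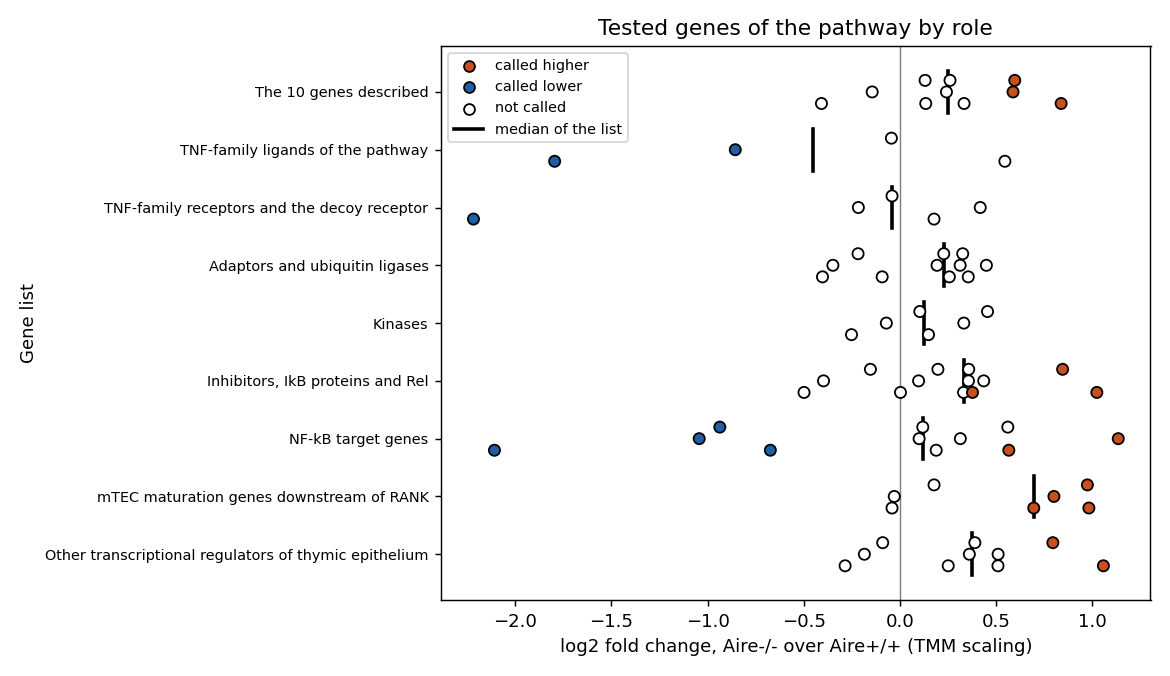
Log2 fold change of Aire -/- over Aire +/+ for the tested genes, by role (TMM scaling); orange was called higher, blue lower, white not called, and the bar is the list's median. The ligands and receptors hold blue points only among their calls, the inhibitors and maturation genes orange points only, and the NF-kB target genes both.

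Relb, Irf8 and MHC class II are also expressed by dendritic cells and macrophages, and 6 markers of these were measured. Led by Lyz2, they summed to 1268 to 1418 CPM for Aire +/+ against 1509 to 2515 CPM for Aire -/-. Of the 6 tested, edgeR called 1 higher (Cd68, edgeR adjusted p = 0.0452), against 8.59% of all tested genes. The count was 2 by edgeR at an unadjusted p of 0.05 and 2 by DESeq2, but 0 by limma-voom and 0 under library totals. Lyz2 itself, 1106 ± 51.7 against 1581 ± 468 CPM, did not pass (edgeR adjusted p = 0.0631). The macrophage markers Csf1r (62.7 ± 21.0 against 67.1 ± 33.5 CPM) and Adgre1 (22.4 ± 4.53 against 13.8 ± 12.2 CPM) were not called. Itgax and Flt3, which mark dendritic cells, were at 20.02 ± 5.75 against 24.5 ± 9.50 CPM and 22.2 ± 4.53 against 24.8 ± 4.12 CPM and were not called.

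Of cortical epithelial markers, all 5 tested of 6 were called higher, against 8.59% of all tested genes (3 under library totals, against 4.74%). Their summed levels were 394 to 621 against 852 to 1020 CPM. Thymocyte markers (8 of 8 in the table, 0 of 8 called, 150 to 249 against 129 to 263 CPM), B cell markers (4 of 4, 0 of 3 tested called, 105 to 132 against 83.2 to 186 CPM) and endothelial markers (4 of 4, 0 of 2 tested called, 19.8 to 25.3 against 12.4 to 28.7 CPM) overlapped (edgeR; 0 at an unadjusted p of 0.05 and by DESeq2 and limma-voom). Over all tested genes, 20.7% were called in either direction. Fibroblast markers, 4 of 5 in the table, ran from 41.0 to 56.7 CPM against 41.6 to 319 CPM, with 746 highest. Of the 3 tested fibroblast markers 1 was called higher, against 8.59% of all tested genes. This was Col3a1, on overlapping libraries. Fibroblast markers called higher numbered 2 by edgeR at an unadjusted p of 0.05, 1 by DESeq2 and 0 by limma-voom. Medullary markers, 7 of 7 in the table, summed to 12692 to 15095 against 20243 to 22958 CPM without overlap, mostly from H2-Aa. Of these, 2 of 7 were called higher (H2-Aa and Cd80), against 8.59% of all tested genes, and 1 under library totals, against 4.74%. The groups did not overlap for 4 of 7, against 36.5% of all tested genes. Cldn3 (110 ± 2.76 against 136 ± 36.3 CPM), Cldn4 (170 ± 5.32 against 212 ± 42.4 CPM) and Epcam (276 ± 28.0 against 278 ± 34.7 CPM) were not called. Krt5 (1578 ± 145 against 1337 ± 566 CPM) and Krt14 (995 ± 64.4 against 892 ± 278 CPM) had lower means in the Aire -/- libraries and were not called either. No marker analysed was at 0 in all libraries, and in these bulk samples fewer cells of a type and less RNA per cell cannot be told apart. The part of any of these cells in the differences of Relb, Traf2 and Map3k14 was not tested.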

How the data were processed

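The 6 libraries were made by MARS-seq from RNA taken up with Dynabeads from cells sorted after enzymatic dissociation of thymi, per the labels' protocols. The build mm10 and the tools STAR 2.4.2a, HTSeq, DESeq2, cutadapt and bcl2fastq come from the submitters' processing notes, which give them no roles. How strand and UMIs were handled, and the annotation, are not stated in the sources used here. Per the file headers, the authors' deposited counts are raw UMI counts per gene symbol, and these were used. The deposited table also holds normalized counts, a signal the authors made with 1 size factor per library (used as an alternative for ratios), and their regularized log2 values (not used), log2 fold changes, p-values and adjusted p-values.

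The test between genotypes was that of edgeR 4.0.16 under R 4.3.3 (glmQLFit and glmQLFTest, TMM, filterByExpr with min.count 10, genotype as the only term) over all 11956 genes that passed, with Benjamini-Hochberg adjustment and a threshold of 0.05. Standard errors were derived from F and the fold change, as were 95% intervals. Alternatives used other scalings, filters, DESeq2 1.42.0, limma 3.58.1 (voom) and fewer libraries. The edgeR fit was tried on counts simulated with known fold changes, and the other steps were not tested in this way. A count of 0 allows up to 3 UMIs, or 1.04 to 2.96 CPM, for counting error only. Named genes were the 10 genes, Aire, up to 3 called genes per direction and 2 uncalled genes of highest level in each list, and the 3 genes nearest in pattern to Fezf2 and to Tnfrsf11a; Cxcl13, Cd86, Gapdh, single marker genes and the untested genes listed at the end lie outside this rule and were chosen with their values in view. The genes and lists were chosen with earlier results of these data known. Positions come from GENCODE vM21. The last 300 nt of transcripts were searched with blastn 2.17.0 for matches of at least 80 nt and 90% identity.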

Additional observations from a re-analysis of the deposited data

How the results depend on the processing

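Over 14 alternatives, the 10 genes gave 140 values, of which 126 kept their direction and their side of the threshold, 8 lost a call (4 each for Traf2 and Map3k14), 1 gained one (Tnfrsf11a without library 749) and 5 turned sign. All 5 were uncalled values near 0: Rela at -0.061 under library totals, -0.10 without both 753 and 746 and from -0.0095 to 0.24 when each library was left out, and Traf6 at -0.071 under library totals and from -0.12 to 0.26. The number of the 10 genes called higher was 3, but 1 under library totals and 1 without both 753 and 746, and from 1 to 3 when each library was left out; the number called lower was 0, and from 0 to 1. Over all genes the calls were 1450 lower and 1027 higher, with 567 higher under library totals (lower calls 78.3% of calls, against 58.5%), 652 without both 753 and 746, and from 618 to 1156 when each library was left out. Pathway genes called higher numbered 7 under library totals, against 4.74% of all tested genes, and 7 without both 753 and 746, against 652 of 12168. Those called lower numbered 4 without both, against 1177 of 12168. The Nfkb2 to Nfkb1 log2 difference of -0.09 ran from -0.26 to 0.048 when each library was left out, and the other 3 ratios kept their direction. Deposited normalized counts leave a ratio within a library as it is by construction. The causes of these changes were not tested. Library 746 had 1014581 UMIs, and its 22 UMIs of Tnfrsf11a and 28 of Traf6 limit their precision. No paired analysis was possible because the library numbers differ between the genotypes.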

Other observations

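Genes nearest in pattern to Fezf2 were sought by the root mean square difference of log2 CPM (pseudocount 0.5), centred over the 6 libraries, among 11955 other tested genes. They were Nprl3 (0.04), Clba1 (0.05) and Mcat (0.05), whose levels were 27.4 ± 4.41, 9.50 ± 1.53 and 25.5 ± 2.86 CPM in the Aire +/+ libraries and 25.3 ± 2.33, 8.30 ± 1.005 and 22.8 ± 1.33 CPM in the Aire -/- libraries. Those nearest to Tnfrsf11a were Farsb (0.05), Dynlrb1 (0.06) and Mrpl39 (0.07). Farsb was at 44.1 ± 3.17 and 31.0 ± 12.5 CPM, Dynlrb1 at 265 ± 31.1 and 202 ± 72.2 CPM and Mrpl39 at 39.5 ± 4.01 and 29.2 ± 9.81 CPM. With 6 libraries of 2 genotypes and this many genes, such nearness is a description only.

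Of the 71 pathway genes in the table, 6 were too low for the test. Tnfsf14, the ligand LIGHT, had 9, 7 and 5 UMIs in libraries 745, 750 and 753 and 0, 0 and 1 in 746, 748 and 749. Ube2n, the ubiquitin-conjugating enzyme that works with TRAF6, had 20, 10 and 12 against 1, 2 and 4, and Tab3, an adaptor of the TAK1 kinase, had 10, 10 and 22 against 1, 5 and 4. Traf1 had 12, 8 and 9 against 4, 14 and 7, Tnfrsf1b 1, 6 and 4 against 1, 2 and 2, and Hoxa3 3, 5 and 4 against 6, 6 and 0. Scaled to CPM, Tnfsf14 was at 2.31 ± 0.64 against 0.20 ± 0.35, Ube2n at 4.63 ± 1.71 against 1.52 ± 0.81 and Tab3 at 4.66 ± 2.36 against 2.05 ± 0.90 (SD, n = 3 each). For these 3 genes the Aire -/- libraries lay below the Aire +/+ libraries under TMM and under library totals, on few UMIs. Groups did not overlap for 36.5% of all tested genes under TMM, a set that leaves these genes out. No such share was computed for genes too low for the test. The main test left these genes out, but alternatives with looser filters took in low genes. There, pathway genes called lower numbered 8 with min.count 3 and 7 without a filter, against 7 in the main test. Pathway genes called higher numbered 12 in each, against 11 in the main test. Over all genes, 2116 were lower and 1109 higher of 14863 tested with min.count 3. Without a filter, 2142 were lower and 1138 higher of 15643. Traf1 was at 3.20 ± 0.66 against 5.31 ± 1.93 CPM, with the Aire -/- libraries above under TMM and overlapping under library totals.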
